A study of Bos taurus with 15 samples.

Results

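The 10 genes described here encode enzymes and helpers that modify, fold, trim and crosslink collagen: the lysyl oxidases LOX, LOXL1, LOXL2 and LOXL3, the lysyl hydroxylases PLOD1 and PLOD2, the prolyl 4-hydroxylase subunits P4HA1 and P4HA2, the collagen chaperone gene SERPINH1, and PCOLCE, which encodes an enhancer of procollagen cleavage. They were chosen by gene name from 38001 bovine genes. Each name matched 1 row of the table, and all 10 had enough counts to be tested, with at least 93 counts in every library. Fibrochondrocytes of the bovine meniscus, the cells that build the matrix of this knee cartilage, were cast in collagen and sampled at day 28 of culture. All 5 groups had the same medium, first 3 days with 10% serum and then 25 days of chondrogenic medium with dexamethasone, ascorbic acid at 50 µg/ml and the growth factor TGF-β3 at 10 ng/ml. The groups were anchored post, anchored middle, unanchored post and unanchored middle, which are the regions of tissues cast in 3D-printed molds with or without post anchors, and no mold, in which cells in collagen were left unshaped. Each group held 3 libraries. The labels do not say how many animals gave the cells, or if replicates and same-numbered regions were cut from different tissues. The p-values therefore describe only the spread among these libraries, and that spread may be technical.

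Newly made collagen chains are hydroxylated on proline and lysine in the endoplasmic reticulum by enzymes that need iron, oxygen and ascorbate. Prolyl 4-hydroxylation stabilises the collagen helix, and hydroxylysine decides which crosslinks can form later. After secretion and removal of the propeptides, copper-dependent lysyl oxidases convert lysines of collagen and elastin into reactive aldehydes that join neighbouring molecules, which gives load-bearing fibrous tissue such as the meniscus its stiffness.

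Library totals ran from 2060781 to 7415701 counts, and the 4 shallowest libraries were the no-mold libraries and anchored middle library 2 (2986944 counts). Values are CPM (counts scaled to a common library total) corrected by the TMM method. Since reads come mainly from the ends of transcripts and are not divided by gene length, levels are compared between groups and not between genes. All 12 markers of fibrochondrocytes and fibroblasts were expressed, with summed levels of 31617 to 40668 CPM of the library total in anchored post, 41777 to 49078 in anchored middle, 32093 to 38671 in unanchored post, 36774 to 49647 in unanchored middle and 31319.6 to 41431 without a mold. Of 8 endothelial, 8 leukocyte, 6 skeletal muscle and 5 Schwann or neural markers, 1, 1, 0 and 1 had enough counts to be tested. Those tested were ERG, CD14 and S100B, with 5938, 326 and 30403.5 counts in all libraries together. The sums below, in CPM, keep that order of groups. Endothelial sums were 65.3 to 80.4, 53.2 to 81.9, 74.5 to 82.2 and 71.7 to 89.2, against 70.4 to 78.6 without a mold. Schwann or neural sums were 380 to 415, 372 to 437, 341 to 387 and 333 to 382, against 409 to 436 without a mold. Markers of mural cells of vessels, 5 of 6 tested, summed to 32.7 to 34.9, 33.8 to 36.3, 33.9 to 37.8 and 36.7 to 40.5 CPM in the same order of groups, against 27.2 to 34.8 without a mold. PECAM1, an endothelial adhesion molecule, had 10 counts in all libraries together, and MYOG and MYOD1, regulators of muscle cells, had 0.

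**Figure D1:**
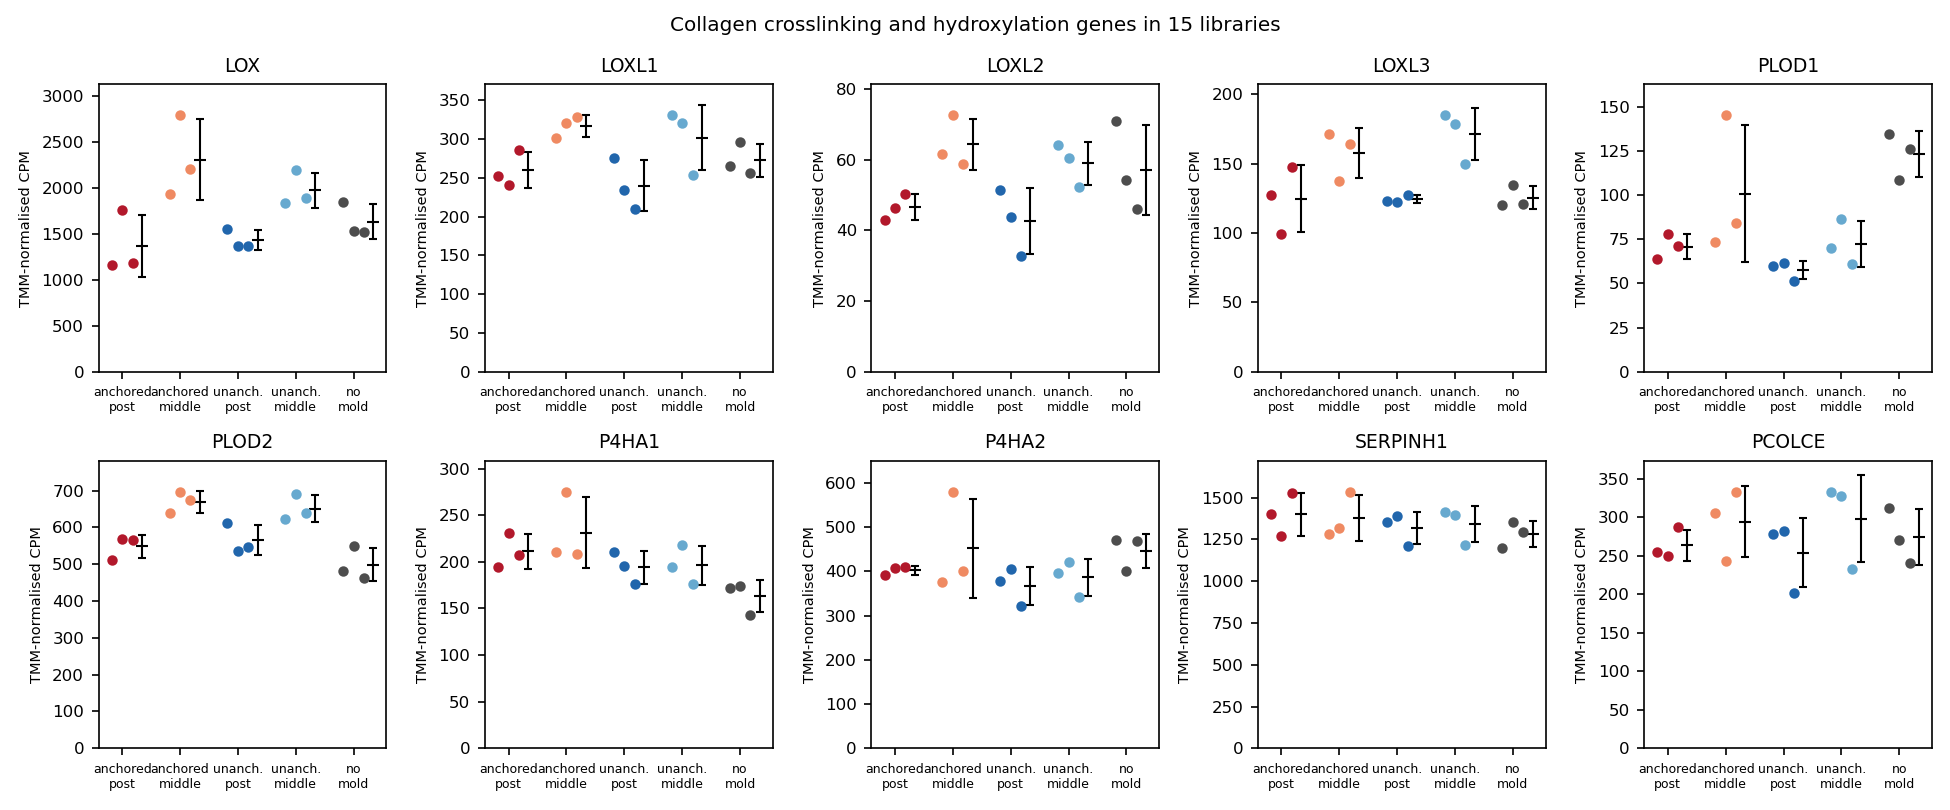
Level of each of the 10 genes in the 15 libraries: points are libraries, the bar beside each group is its mean ± SD (n = 3), and the y axis is TMM-normalised CPM from 0. For LOX, LOXL1, LOXL2 and LOXL3 the middle groups have higher means than the post groups, and PLOD1 is highest without a mold and in anchored middle library 2.

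Anchored middle had the highest mean for 6 of the 10 genes (LOX, LOXL1, LOXL2, PLOD2, P4HA1 and P4HA2), and unanchored post the lowest for 6 (LOXL1, LOXL2, LOXL3, PLOD1, P4HA2 and PCOLCE). For P4HA1 and P4HA2 that first place rested on the shallow anchored middle library 2: without it the anchored middle means were 209 and 388 CPM, below the anchored post means of 211 and 403 CPM. The highest P4HA2 mean was then that without a mold, at 447 CPM. Group means spanned the widest range for PLOD1, from 57.6 ± 5.30 CPM in unanchored post to 123 ± 13.2 without a mold, and the narrowest for SERPINH1, from 1284 ± 76.8 without a mold to 1399.9 ± 127 in anchored post (SD, n = 3 each).

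Post against middle regions is the comparison of parts within a tissue. LOX, LOXL1, LOXL2 and LOXL3 and the lysyl hydroxylase genes PLOD1 and PLOD2 were lower at the posts when both mold types were pooled, whereas none of the prolyl hydroxylase, chaperone and procollagen-cleavage genes among the 10 passed the test. Of the 10 genes, 6 fell and 0 rose (edgeR quasi-likelihood test, Benjamini-Hochberg adjusted over 11834 genes at 0.05), where 5.19% of all genes tested fell and 3.32% rose. The median log2 fold change of the 10 was -0.28, beside -0.01 for all genes. The pooled test treats the 6 post and 6 middle libraries as separate samples. In bulk RNA, fewer cells that express a gene and less RNA per cell cannot be told apart.

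LOX (ENSBTAG00000012994), the founding lysyl oxidase and the main crosslinking enzyme of fibrillar collagen and elastin, had the largest difference among the 10. LOX had 1159.8, 1758 and 1183 CPM in the anchored post libraries, against 1928, 2786 and 2201 CPM in the anchored middle libraries. In unanchored tissue it had 1554, 1372 and 1370.2 CPM at the post, against 1836, 2190.2 and 1884 CPM in the middle. The post and middle libraries did not overlap in either mold type or when pooled, as with 9.73% of all genes in anchored tissue, 10.9% in unanchored tissue and 2.30% pooled, although anchored post library 2, at 1758 CPM, lay close to the lowest middle library. LOX fell by 0.61 log2 units over both mold types (SE 0.106, edgeR adjusted p = 0.000935), a call that held when any 1 library was left out.

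LOXL2 (ENSBTAG00000006214), a family member known for crosslinking basement membrane collagen IV, was the least counted of the 10. LOXL2 had 43.0, 46.4 and 50.3 CPM in the anchored post libraries, against 61.5, 72.6 and 58.8 CPM in the anchored middle libraries. The unanchored libraries had 51.4, 43.7 and 32.7 CPM at the post, against 64.1, 60.6 and 52.3 CPM in the middle. The regions did not overlap, neither within a mold type nor pooled, as with 9.73% of all genes in anchored tissue, 10.9% in unanchored tissue and 2.30% pooled. The pooled fall was 0.46 log2 units (SE 0.101, edgeR adjusted p = 0.0061).

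LOXL3 (ENSBTAG00000018578) is needed for palate and vertebral development in mice. LOXL3 had 127, 99.5 and 148 CPM in the anchored post libraries, against 171, 137 and 164 CPM in the anchored middle libraries. Unanchored tissue had 123, 123 and 128 CPM at the post, against 185, 179 and 149.8 CPM in the middle. All 3 unanchored post libraries were below all unanchored middle libraries, as with 10.9% of all genes, while anchored post library 3 exceeded anchored middle library 2. The pooled fall was 0.40 (SE 0.0846, edgeR adjusted p = 0.00436), and this call and that of LOXL2 also held when any 1 library was left out.

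LOXL1 (ENSBTAG00000009086), which is tied to elastic fibre renewal, differed less. LOXL1 had 253, 241 and 286 CPM in the anchored post libraries, against 302, 320.1 and 328 CPM in the anchored middle libraries. Without anchors it had 275, 234 and 210.0 CPM at the post, against 330.3, 321 and 253 CPM in the middle. In unanchored tissue 1 post library lay above the lowest middle library, and in anchored tissue the regions did not overlap, as with 9.73% of all genes. LOXL1 fell by 0.31 log2 units (SE 0.0799, edgeR adjusted p = 0.0186). Leaving out unanchored post library 3 ended that call (adjusted p = 0.0664), as did leaving out unanchored middle library 1 (0.0617) or 2 (0.0668).

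**Figure D2:**
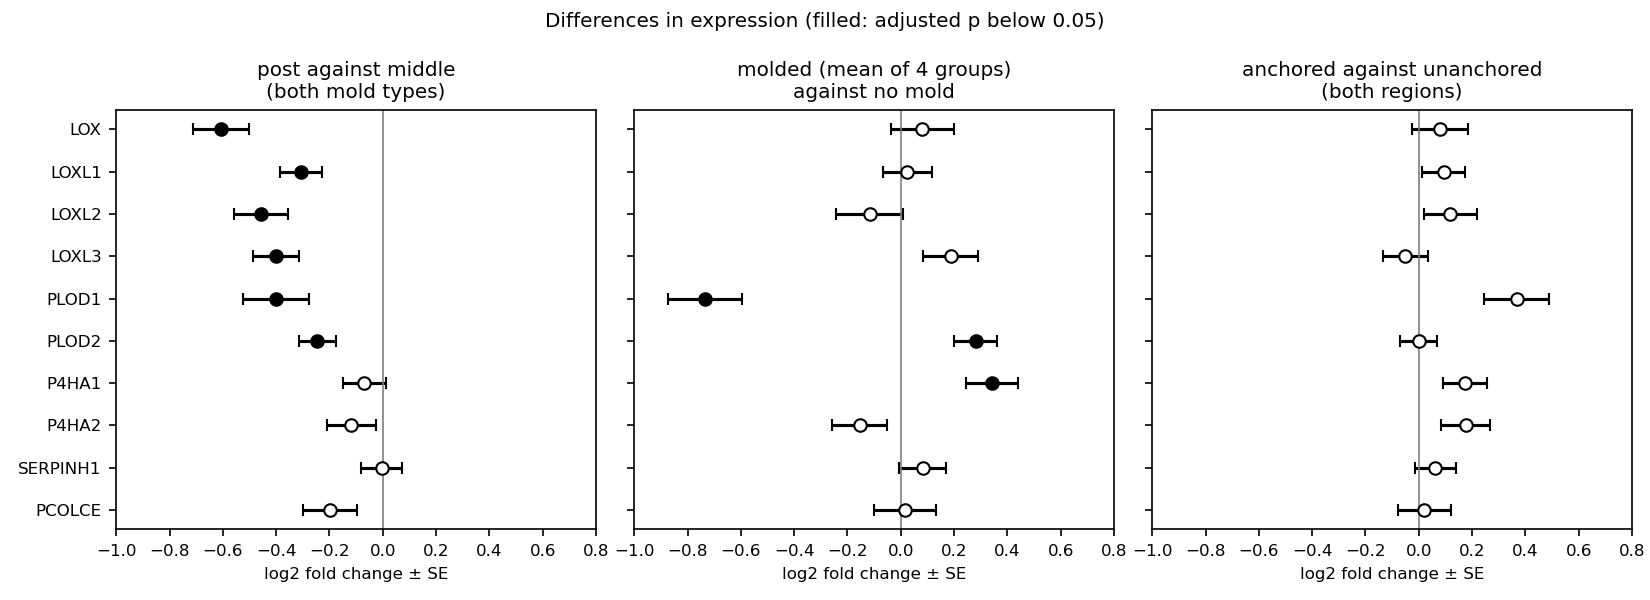
Log2 fold change ± SE of the 10 genes (edgeR model of all 15 libraries) for post against middle, molded against no mold and anchored against unanchored; filled points have an adjusted p below 0.05. The 6 filled points in the first panel are the lysyl oxidase and lysyl hydroxylase genes, from -0.61 for LOX to -0.25 for PLOD2, the second panel has 3 filled points and the third has 0.

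PLOD2 (ENSBTAG00000007331) encodes the lysyl hydroxylase that acts on the telopeptides, the ends of the collagen chain from which stable hydroxylysine-derived crosslinks start. PLOD2 had 511, 569 and 564 CPM in the anchored post libraries, against 638, 697 and 674 CPM in the anchored middle libraries. In the unanchored libraries it had 611, 536 and 547 CPM at the post, against 622, 691 and 639 CPM in the middle. Every middle library exceeded every post library, as with 2.30% of all genes, and the fall was 0.25 log2 units (SE 0.0688, edgeR adjusted p = 0.0276). The call was lost when any 1 of 5 libraries was left out, anchored post 1 (adjusted p = 0.0698), anchored middle 3 (0.0609), unanchored post 2 (0.0721) or 3 (0.0745) and unanchored middle 2 (0.0961).

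PLOD1 (ENSBTAG00000002052), the lysyl hydroxylase of the helical part of the chain, had its widest spread within a group in anchored middle. PLOD1 had 63.9, 77.8 and 70.9 CPM in the anchored post libraries, against 73.4, 145 and 84.1 CPM in the anchored middle libraries. The unanchored values were 59.7, 61.4 and 51.5 CPM at the post, against 70.1, 86.6 and 60.9 CPM in the middle. The regions overlapped in both mold types, and anchored middle library 2, one of the shallowest libraries, stood far above the other 2 of its group. PLOD1 fell by 0.40 log2 units (SE 0.123, edgeR adjusted p = 0.043). Without anchored middle library 2 the log2 fold change was -0.24 (adjusted p = 0.0798). Leaving out any 1 of 8 other libraries also ended the call: anchored post 1 (adjusted p = 0.0924) or 3 (0.0726), unanchored post 1, 2 or 3 (0.064, 0.0556 and 0.109), unanchored middle 1 or 2 (0.0729 and 0.146) and no-mold 3 (0.0547), which enters through the shared spread. With the 3 shallowest libraries left out together the adjusted p was 0.083.

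Of the other 4 genes, 0 passed between regions by edgeR, 0 at an unadjusted p below 0.05 and 0 by DESeq2. P4HA1 (ENSBTAG00000032996) and P4HA2 (ENSBTAG00000001116), catalytic subunits of prolyl 4-hydroxylase, had pooled log2 fold changes of -0.07 (95% interval -0.24 to 0.10) and -0.12 (-0.31 to 0.07). SERPINH1 (ENSBTAG00000001027), the gene of the collagen chaperone HSP47, had 0.00 (-0.16 to 0.16), with 1210.3 to 1526 CPM in the 6 post libraries and 1219 to 1535 in the 6 middle libraries. PCOLCE (ENSBTAG00000020528), whose protein enhances removal of the C-propeptide, had -0.20 (-0.41 to 0.01, edgeR adjusted p = 0.243).

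Within 1 mold type, with 3 libraries against 3, fewer genes passed. In anchored tissue 1 of the 10 fell, LOX, by 0.75 log2 units (SE 0.15, edgeR adjusted p = 0.00775), where 1.66% of all genes fell and 0.254% rose. This call ended without anchored post library 1 (adjusted p = 0.0616) or 3 (0.0704). In unanchored tissue 0 of the 10 passed by edgeR, where 0.380% of all genes fell and 0.0676% rose. Of the 10, 5 had an unadjusted p below 0.05, as did 13.9% of all genes, and by DESeq2 LOXL3 passed. With no filter on low counts, LOXL2 and PLOD1 also passed in anchored tissue (edgeR adjusted p = 0.0181 and 0.00743), and LOX, LOXL2 and LOXL3 passed in unanchored tissue (0.00579, 0.0129 and 0.00518). With the filter, the nearest to the threshold in unanchored tissue by edgeR was LOXL3 at -0.46 (adjusted p = 0.0856). The difference between mold types in the size of the regional difference was itself tested, and 0 of the 10 passed by edgeR, 0 at an unadjusted p below 0.05 and 0 by DESeq2. The interval of that difference was -0.73 to 0.14 for LOX.

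Other genes of collagen modification, from a list of 23 of which 18 had enough counts, went the same way or did not pass: 4 fell and 0 rose between regions. LOXL4, the remaining lysyl oxidase gene, fell by 0.48 log2 units (edgeR adjusted p = 0.00318). P4HB, which encodes the shared second subunit of prolyl 4-hydroxylase, fell by 0.42 (0.00668 as edgeR adjusted p), and P4HA3, a further catalytic subunit, by 0.39 (edgeR adjusted p = 0.00869). ADAMTS2, the procollagen N-proteinase, fell by 0.45 (edgeR adjusted p = 0.00102). PLOD3, the remaining lysyl hydroxylase gene, did not pass at -0.14 (SE 0.0854, edgeR adjusted p = 0.35). The median of the 18 was -0.14, against -0.01 for all genes.

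Of 17 genes of collagens and elastin, the substrates of these enzymes, 7 fell at the posts and 0 rose, with a median log2 fold change of -0.23. ELN, the gene of elastin, fell by 0.97 log2 units, COL3A1 by 0.66, COL1A1 by 0.60 and COL5A2 by 0.55 (edgeR adjusted p = 0.00178, 0.000981, 0.0121 and 0.000935). COL1A2, the second chain of type I collagen, averaged 7177 ± 514 CPM in anchored post and 9569.9 ± 394 in anchored middle. In unanchored tissue it averaged 7103 ± 1117 CPM at the post and 9252 ± 1548 in the middle (SD, n = 3 each).

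The levels were also set against COL1A2, as a ratio that is read across libraries only and was not tested. For SERPINH1, there were 19.64, 19.03 and 19.79 CPM per 100 CPM of COL1A2 in anchored post, against 13.52, 14.29 and 15.36 in anchored middle. In unanchored tissue the ratio was 17.08, 18.39 and 20.75 at the post, against 14.86, 13.11 and 16.08 in the middle. Every post library thus held more of the chaperone's transcript per COL1A2 transcript than every middle library, while the no-mold libraries, at 15.41, 20.02 and 22.76, spanned both ranges. SERPINH1 itself was level between the regions and COL1A2 was lower at the posts, so this gap came with COL1A2. A gene level between regions would tend to give the same gap, and the share of all genes that did was not counted. P4HA1 and P4HA2 had 2.86 ± 0.327 and 5.42 ± 0.425 CPM per 100 at the post against 2.28 ± 0.363 and 4.48 ± 0.913 in the middle (SD, n = 6), with anchored middle library 2 inside the post range for P4HA1 and above it for P4HA2. For the lysyl oxidases the ratio overlapped between regions: LOXL1 had 3.50 ± 0.212 per 100 at the post against 3.29 ± 0.177 in the middle, LOXL2 0.623 ± 0.0504 against 0.659 ± 0.0785, and LOX 19.9 ± 4.26 against 22.9 ± 4.10 (SD, n = 6).

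**Figure D3:**
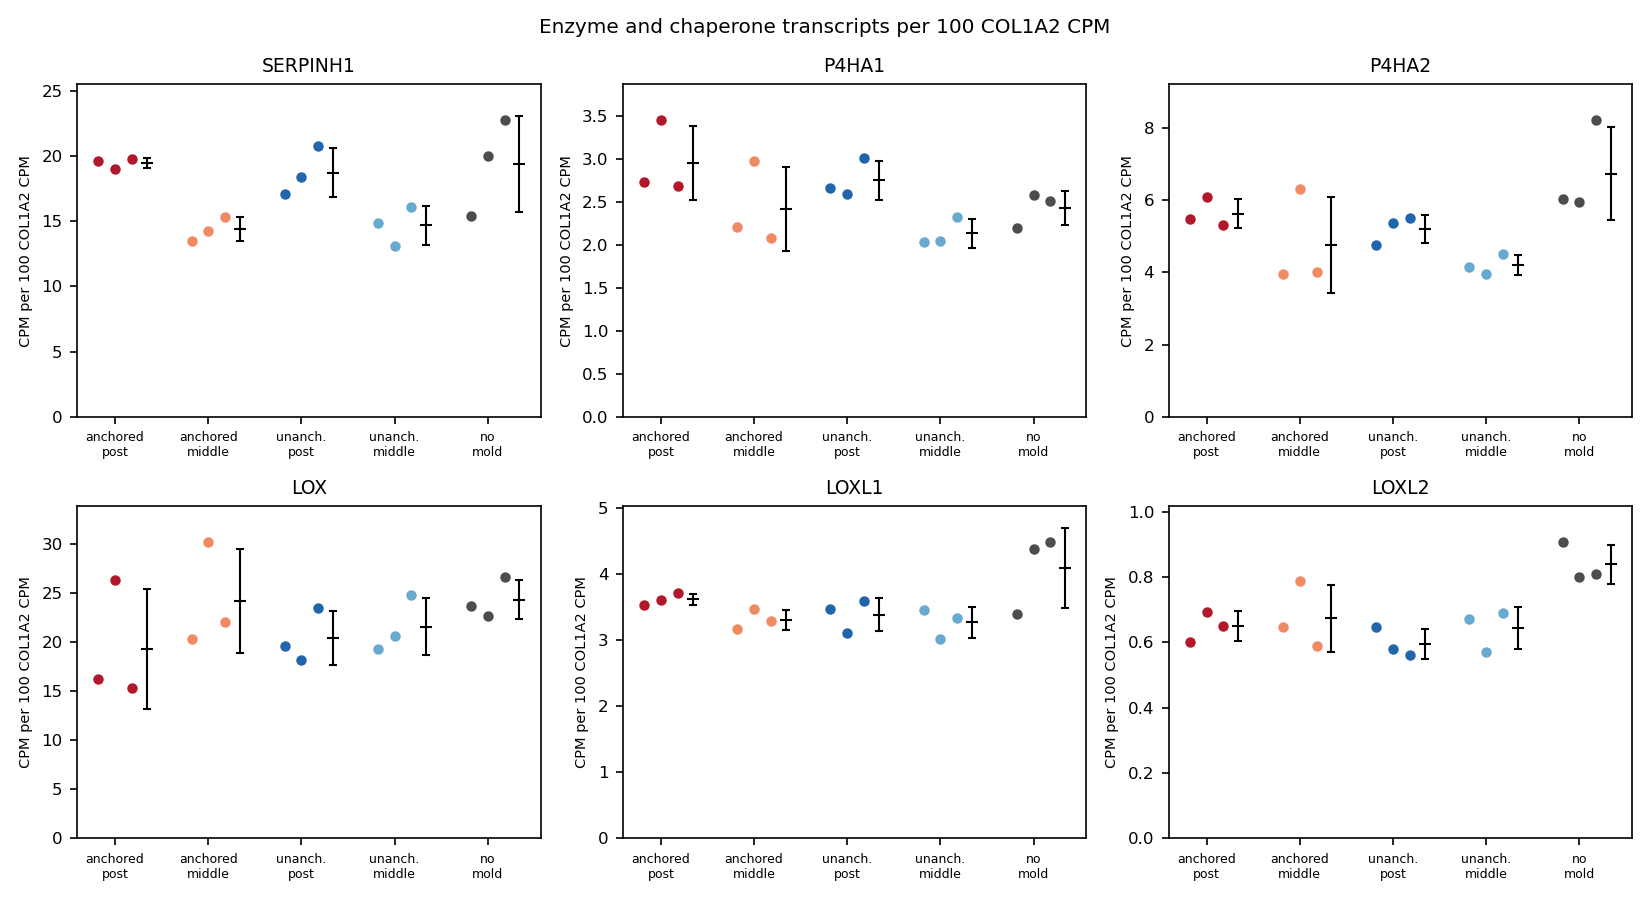
CPM of 6 of the genes per 100 CPM of COL1A2 in each library (points) with the group mean ± SD (n = 3); the y axes start at 0. For SERPINH1 the post libraries (17.1 to 20.8) all lie above the middle libraries (13.1 to 16.1), and for LOX, LOXL1 and LOXL2 the regions overlap.

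Of the 12 fibrochondrocyte and fibroblast markers, 7 fell at the posts and 1 rose, with a median log2 fold change of -0.43. Beside the 3 collagen genes COL1A1, COL1A2 and COL3A1, those that fell were COMP, PRG4, ACAN and FMOD, by 1.43, 1.15, 1.01 and 0.45 log2 units (edgeR adjusted p = 0.000121, 9.03e-06, 0.00164 and 0.00281), and LUM, the gene of lumican, rose by 0.34 (edgeR adjusted p = 0.0191). Adipocyte markers moved with region in part. LPL, the gene of lipoprotein lipase, fell by 0.94 log2 units at the posts (edgeR adjusted p = 0.000227), FABP4 and PLIN1 had -0.17 (SE 0.116, edgeR adjusted p = 0.402) and -0.37 (SE 0.214, edgeR adjusted p = 0.317), and the fourth marker, ADIPOQ, was not analysed here. The part of these levels in the regional differences was not tested. Ferritin, which stores the iron that hydroxylases need, was higher at the posts: FTH1 rose by 0.44 and FTL by 0.43 log2 units (edgeR adjusted p = 0.00164 and 0.000935). That makes 2 of 5 tested genes of iron and copper supply. The ascorbate transporter genes SLC23A1 and SLC23A2 were not tested.

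Molded against unmolded tissue is the comparison of shaped with unshaped collagen. In it, the lysyl hydroxylase genes parted: PLOD1 was lower and PLOD2 higher in molded tissue, and P4HA1 was higher. Of the 10 genes, 2 rose and 1 fell in the mean of the 4 molded groups, where 8.04% of all genes tested rose and 7.91% fell (edgeR). The median log2 fold change of the 10 was 0.05, against 0.00 for all genes.

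PLOD1 had 63.9, 77.8 and 70.9 CPM in anchored post, 73.4, 145 and 84.1 in anchored middle, 59.7, 61.4 and 51.5 in unanchored post and 70.1, 86.6 and 60.9 in unanchored middle, against 135, 109 and 126 CPM without a mold. All molded libraries except anchored middle library 2 lay below all no-mold libraries. PLOD1 fell by 0.74 log2 units (SE 0.138, edgeR adjusted p = 0.000849), and the call held when any 1 library was left out (adjusted p at most 0.0131).

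The 4 libraries with the highest PLOD1 values were the 4 with the lowest totals, 3 of them without a mold, so its level moved with depth as well as with molding. With anchored middle 2 and no-mold 1 and 3, the 3 shallowest libraries, left out, the log2 fold change was -0.65 (edgeR adjusted p = 0.0149), with 1 no-mold library left that was assumed to vary like the other groups. In that library, with 4466562 counts, PLOD1 stood at 109 CPM, above the 11 molded libraries of 4970209 counts or more (51.5 to 86.6 CPM). Of PLOD1 counts, 35.8% sat in values that are not whole, as when reads are shared with another gene.

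PLOD2 had 482, 549 and 463 CPM without a mold, below every middle library (622 to 697 CPM) but within the range of the post libraries (511 to 611 CPM) for no-mold library 2. It rose by 0.28 log2 units (SE 0.0797, edgeR adjusted p = 0.0178). The call was lost without no-mold library 1 (adjusted p = 0.0909) or 3 (0.142), and without the 3 shallowest libraries the log2 fold change was 0.14 (0.618 as adjusted p).

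PLOD2 reads per PLOD1 read were chosen as a measure after both values were seen, and the ratio is given without a test. It was 8.00, 7.31 and 7.96 in anchored post, 8.69, 4.80 and 8.01 in anchored middle, 10.23, 8.72 and 10.61 in unanchored post and 8.86, 7.98 and 10.49 in unanchored middle, against 3.58, 5.04 and 3.68 without a mold. Except for anchored middle library 2, every molded library exceeded every no-mold library. The means were 8.47 ± 1.59 over the 12 molded libraries and 4.10 ± 0.82 over the 3 no-mold libraries (SD).

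**Figure D4:**
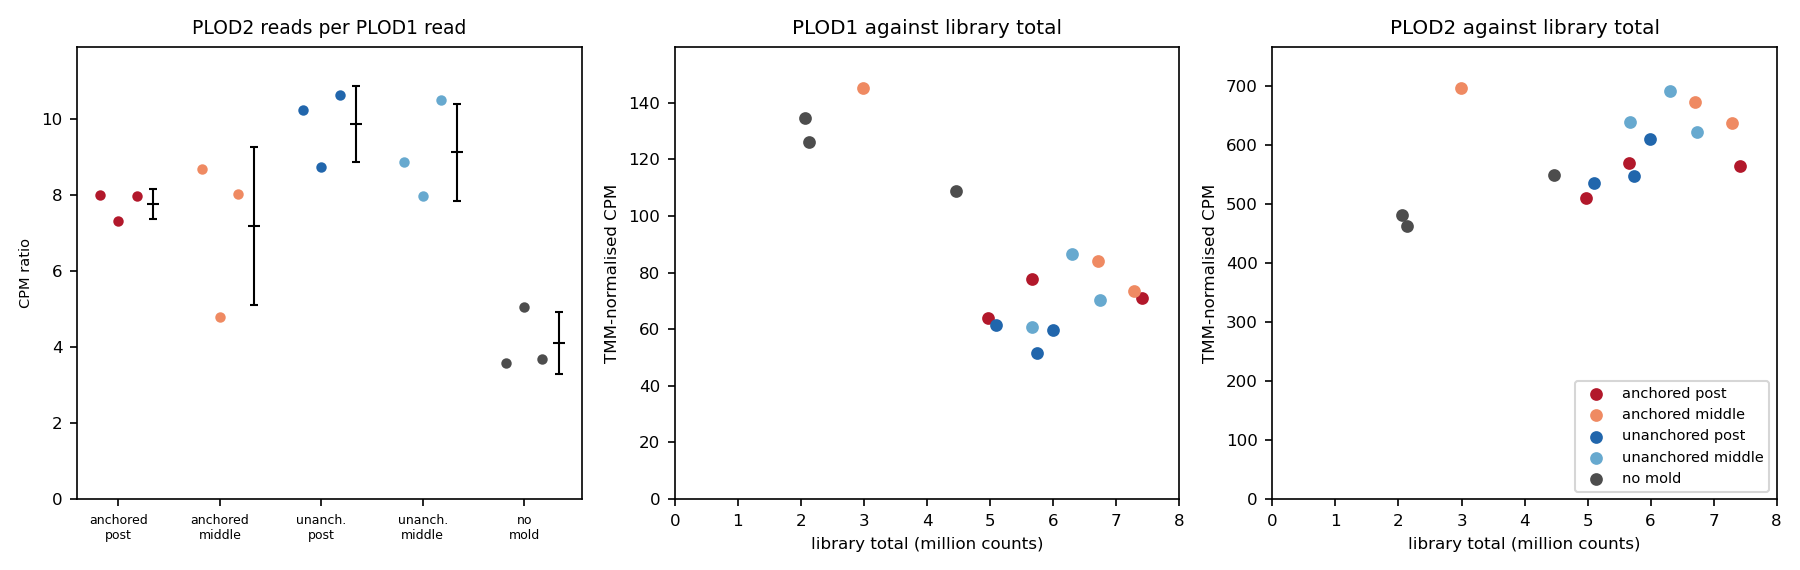
PLOD2 CPM divided by PLOD1 CPM per library with group mean ± SD (n = 3), and the CPM of PLOD1 and of PLOD2 against the library total, 1 point per library coloured by group. The ratio is 3.58 to 5.04 without a mold and 4.80 to 10.6 in molded libraries, and the 4 highest PLOD1 points are the 4 shallowest libraries.

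Among the prolyl 4-hydroxylase subunits, P4HA1 had 195, 231 and 208 CPM in anchored post, 210.2, 275 and 208 in anchored middle, 211, 196 and 176 in unanchored post and 194, 218 and 177 in unanchored middle, against 172, 174 and 143 without a mold. The lowest molded library exceeded the highest no-mold library by a small margin, and such a gap upward was seen in 5.64% of all genes. P4HA1 rose by 0.34 log2 units (SE 0.0987, edgeR adjusted p = 0.0196). That call was lost without no-mold library 3 (adjusted p = 0.171), and without the 3 shallowest libraries the value was 0.22 (adjusted p = 0.431); 60.1% of its counts sat in values that are not whole. P4HA2, with 321 to 580.1 CPM in molded libraries and 402 to 470.4 without a mold, did not pass (log2 fold change -0.15, SE 0.105, edgeR adjusted p = 0.346).

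The other 6 genes did not pass in the mean of the molded groups. LOX, LOXL1 and LOXL2 had log2 fold changes of 0.08, 0.02 and -0.12, and LOXL3 had 0.19 (edgeR adjusted p = 0.713, 0.905, 0.587 and 0.227). SERPINH1 and PCOLCE had 0.08 and 0.02 (95% intervals -0.10 to 0.26 and -0.23 to 0.26). This mean pools post and middle groups. LOX averaged 1367 ± 339 CPM in anchored post, 2305 ± 439 in anchored middle, 1432 ± 106 in unanchored post and 1969.9 ± 192 in unanchored middle, against 1633 ± 187 without a mold (SD, n = 3 each). Its no-mold libraries had 1848, 1535 and 1515 CPM, between the means of the post and the middle groups. LOXL3 averaged 125 ± 24.2 and 124 ± 2.85 CPM at the anchored and unanchored posts, against 125 ± 8.26 CPM without a mold, so its post and no-mold means lay within 1 SD. No lysyl oxidase gene passed at either post against no mold.

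Taken 1 group at a time against the same 3 no-mold libraries, which all 4 comparisons share, the middle groups had more of the 10 genes higher and the post groups only PLOD1 lower. In anchored middle 3 of the 10 rose, where 7.11% of all genes rose and 6.20% fell. PLOD2 rose by 0.42 log2 units, P4HA1 by 0.49 and LOX by 0.50 (edgeR adjusted p = 0.00583, 0.00872 and 0.0294). The LOX call was lost when anchored middle 2 (adjusted p = 0.108), anchored middle 3 (0.0508) or no-mold library 2 (0.096) or 3 (0.127) was left out, and the P4HA1 call without no-mold library 3 (0.0671). PLOD1 had -0.32 there (edgeR adjusted p = 0.251), and -0.63 without anchored middle library 2 (adjusted p = 0.00202).

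In unanchored middle 2 of the 10 rose and 1 fell, where 7.56% of all genes rose and 7.20% fell. LOXL3 rose by 0.44 and PLOD2 by 0.38 log2 units, and PLOD1 fell by 0.75 (edgeR adjusted p = 0.0182, 0.0107 and 0.00599). The PLOD1 call held without any 1 library. The LOXL3 call ended without unanchored middle library 1 (adjusted p = 0.0799) or 2 (0.0649) or no-mold library 1 (0.0641) or 3 (0.0806), and the PLOD2 call without unanchored middle library 2 (0.0575) or no-mold library 3 (0.0736).

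At the posts, PLOD1 was the 1 gene of the 10 that passed against no mold. It fell by 0.78 log2 units in anchored post and by 1.09 in unanchored post (edgeR adjusted p = 0.00996 and 0.000554), where 2.64% and 4.09% of all genes fell and 2.92% and 4.93% rose. The call in anchored post ended without anchored post library 1 (adjusted p = 0.0523) or no-mold library 1 (0.0596), and that in unanchored post held without any 1 library. With the 3 shallowest libraries left out, the calls that remained in these 4 comparisons were those of PLOD1 in unanchored post (adjusted p = 0.00453) and unanchored middle (0.0437). PLOD1 in anchored post then had 0.0826 as adjusted p, LOX, PLOD2 and P4HA1 in anchored middle had 0.26, 0.324 and 0.37, and LOXL3 and PLOD2 in unanchored middle had 0.276 and 0.33.

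Around these genes, the list of 18 other collagen modification genes had 1 that rose and 4 that fell with a mold. The 1 that rose was P4HA3, by 0.61 log2 units (edgeR adjusted p = 0.000542). It averaged 282 ± 27.0 CPM in anchored post, 389 ± 51.7 in anchored middle, 262 ± 29.2 in unanchored post and 328 ± 58.0 in unanchored middle, against 203 ± 23.5 without a mold (SD, n = 3 each). P3H3, whose protein works with the PLOD1 enzyme in mice, fell by 0.49 (edgeR adjusted p = 0.00833). FKBP10, a prolyl isomerase needed for telopeptide hydroxylation by the PLOD2 enzyme, fell by 0.29, and BMP1, the procollagen C-proteinase, and PCOLCE2, a second enhancer of it, fell by 0.30 and 0.27 (edgeR adjusted p = 0.045, 0.0377 and 0.0343). PLOD3 did not pass here either, at -0.24 (SE 0.102, edgeR adjusted p = 0.117). Of 17 substrates, 3 fell (COL2A1, COL11A2 and ELN) and 1 rose (COL4A1, by 1.28 with edgeR adjusted p = 0.00102).

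P4HA1, P4HA2, PLOD2 and LOX are known targets of hypoxia-inducible factor. Of 19 tested genes of a hypoxia-responsive list that leaves these 4 out, 10 fell and 0 rose with a mold, with a median log2 fold change of -0.48. Of all genes tested, 7.91% fell and 8.04% rose. ADM, the gene of the peptide adrenomedullin, fell by 1.06 log2 units and EGLN3, an oxygen-sensing prolyl hydroxylase gene, by 1.03 (edgeR adjusted p = 0.000229 and 0.012). Of the 4 targets, PLOD2 and P4HA1 rose, and LOX and P4HA2 did not pass. The PLOD2 and P4HA1 calls held in 13 and 14 of 15 fits with 1 library left out. Both rises were smaller in the fit without the shallowest libraries, given above, which leaves 1 no-mold library. PLOD1, not among these 4, fell with a mold, with a log2 fold change of -0.74. Over the 15 libraries PLOD1 was most like SLC2A3, a gene of the hypoxia-responsive list (Pearson r = 0.966). The part of hypoxia in these differences was not tested. Between regions 0 of the 19 fell and 0 rose by edgeR, with 2 at an unadjusted p below 0.05, which 23.4% of all genes had. Of 14 tested chaperone genes of the endoplasmic reticulum and of heat shock, in which the collagen chaperone SERPINH1 is not counted, 5 rose and 0 fell with a mold, among them HSP90B1 by 0.59 (edgeR adjusted p = 0.00108). Of 12 genes known to respond to TGF-β, 2 rose, POSTN by 0.81 and SKIL by 0.67, and 0 fell (edgeR adjusted p = 1.62e-05 and 0.00914). The ferritin genes FTH1 and FTL fell by 0.86 and 0.39 (edgeR adjusted p = 5.86e-07 and 0.00256).

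With a mold, 4 of the 12 fibrochondrocyte and fibroblast markers fell, ACAN by 0.84, SOX9 by 0.79, COMP by 0.76 and PRG4 by 0.60 log2 units (edgeR adjusted p = 0.00601, 5.86e-07, 0.0189 and 0.0046). DCN, the gene of decorin, rose by 0.85 (edgeR adjusted p = 8.34e-07). Adipocyte markers moved with molding as well, with summed levels of 319 to 510.4, 414 to 575, 357 to 409 and 387 to 478 CPM of the library total in anchored post, anchored middle, unanchored post and unanchored middle, against 275 to 306 without a mold. FABP4, a fatty acid binding protein gene, made up most of the sum and rose by 0.58 log2 units, while LPL fell by 0.69 (edgeR adjusted p = 0.00623 for FABP4 and 0.00661 for LPL). PLIN1, a lipid droplet gene, had -0.13 (SE 0.31, edgeR adjusted p = 0.851). Of 4 red blood cell markers 2 were tested, with summed levels of at most 7.52 CPM in any library. HBM, with only 52 counts in all libraries together, fell by 3.12 (edgeR adjusted p = 0.000827), and HBB did not pass. The part of these levels, and of depth, in the molding differences was not tested.

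The comparison of anchored with unanchored tissue asked what the post anchors changed. Not 1 of the 10 genes passed: 0 by edgeR and by DESeq2 in the post, the middle and both regions pooled, where 0% of all genes tested passed by edgeR. With no filter on low counts, edgeR passed PLOD1 in the pooled comparison (adjusted p = 0.00657) and 66 genes in all. At an unadjusted p below 0.05 there were 0, 1 and 2 of the 10 in these 3 comparisons, and 454, 366 and 648 of all 11834 genes.

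The difference nearest to the threshold was that of PLOD1 over both regions, with 63.9 to 145 CPM in the 6 anchored libraries and 51.5 to 86.6 in the 6 unanchored libraries (log2 fold change 0.37, SE 0.123, edgeR adjusted p = 0.817). Its libraries overlapped over both regions, and in the post every anchored library was above every unanchored one, as were 4.99% of all genes. Without anchored middle library 2 the log2 fold change was 0.21 (adjusted p = 1).

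For the lysyl oxidases the pooled 95% intervals of the anchored minus unanchored log2 difference were -0.14 to 0.30 for LOX, -0.07 to 0.26 for LOXL1, -0.09 to 0.33 for LOXL2 and -0.23 to 0.12 for LOXL3. They were -0.14 to 0.14 for PLOD2, -0.10 to 0.22 for SERPINH1 and -0.19 to 0.23 for PCOLCE. For P4HA2 the interval was -0.02 to 0.37. These 8 intervals hold values on both sides of 0, so neither a difference of a size within them nor its absence was shown with 3 libraries a group. The intervals of PLOD1 (0.11 to 0.62) and P4HA1 (0.00 to 0.34), which are not adjusted for the number of genes, lie above 0 (edgeR adjusted p = 0.817 and 0.886).

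The 10 genes did not vary as 1 block among libraries of the same group. After the group means were taken out, the 45 pairs of genes had Pearson r of -0.72 to 0.95 over the 15 libraries, given as a description, since libraries share depth and handling. PLOD1 and P4HA2, both hydroxylases of the endoplasmic reticulum, were the closest pair (0.95, or 0.88 without anchored middle library 2), and P4HA2 too had its 3 highest values in the 3 shallowest libraries. LOX varied with PLOD1 (0.75, or 0.66 without that library) and P4HA1 (0.77, or 0.67) and against LOXL3 (-0.72, or -0.64). LOXL1 varied instead with SERPINH1 (0.77, or 0.79) and PCOLCE (0.70, or 0.80), and with LOX its r was 0.02.

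**Figure D5:**
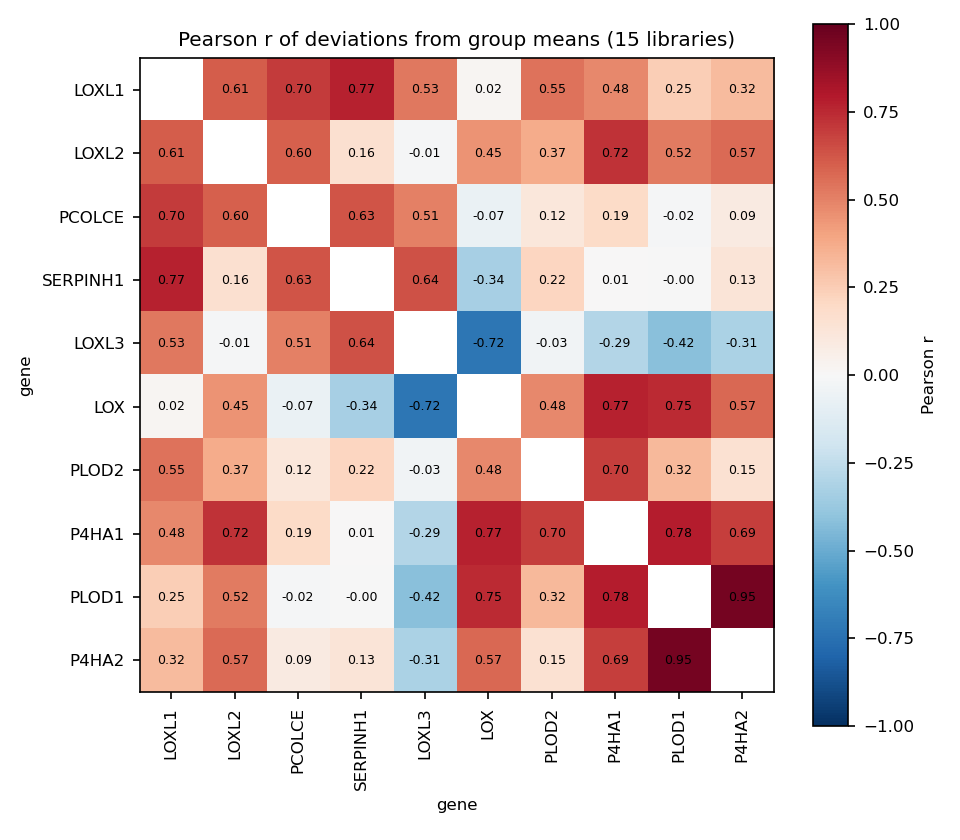
Pearson r between each pair of the 10 genes over 15 libraries, on log2 CPM after subtracting each group's mean; colour and printed number give r from -1 to 1. The highest value is 0.95 for PLOD1 with P4HA2 and the lowest -0.72 for LOX with LOXL3.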

How the data were processed

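The table holds 38093 rows, 38001 bovine Ensembl genes and 92 spike-in sequences, with expected counts (not all whole) and CPM (counts divided by the library total and scaled) that the authors deposited for each of 15 libraries. Per the labels' protocols, RNA was reverse transcribed from an oligo-dT primer that carries a molecular identifier, and the cDNA was tagmented. The tools named in the notes on processing by the submitters were STAR 2.7, SAMtools 1.21, Subread 2.1.1 with featureCounts, and MultiQC 1.33. Sources used here do not give the build, the settings of counting, or if identifiers were collapsed, so no coordinates are printed, and PCR copies may count as reads.

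Expected counts were rounded, and spike-in rows (582 counts in all) were left out. Genes were kept by filterByExpr (count of 10, total of 15; 11834 genes), scaled by TMM, and fitted with the edgeR 4.0.16 quasi-likelihood model in R 4.3.3 with 1 mean per group. Contrasts were two-sided and adjusted by Benjamini-Hochberg over all genes at 0.05; intervals are 95%. The procedure was tested on simulated data. A log2 prior count of 1 was used for correlations. The shares of counts in values that are not whole (tolerance 1e-06) were 30.3% for LOX, 20.8% for PLOD2, 51.6% for SERPINH1, 9.69% for LOXL3, 6.43% for PCOLCE and 0% for LOXL1, LOXL2 and P4HA2. Alternatives were RLE scaling, DESeq2 1.42.0, no filter, a replicate block, each library left out, and the 3 shallowest left out. Named are the 10 genes, up to 4 called genes of each context list and comparison, and, for likeness, the 3 genes with the highest r; PLOD3, PCOLCE2 and marker genes were added after their values were seen. The genes and lists were chosen with earlier results of these data known.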

Additional observations from a re-analysis of the deposited data

Results flagged for a closer look

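The difference of LOX from no mold was not the same in the regions of anchored tissue. It was -0.26 log2 units in anchored post (edgeR adjusted p = 0.358) and 0.50 in anchored middle (edgeR adjusted p = 0.0294). Both comparisons use the same no-mold libraries, which cancel when one is set against the other. That test is therefore the one of anchored post against anchored middle given above (-0.75, edgeR adjusted p = 0.00775), and not a further result. With 1 library left out, its call held in 13 of 15 fits, and the call of anchored middle against no mold in 11 of 15. The regional difference of LOX did not pass as different between mold types. For the other 9 genes the test of anchored post against anchored middle did not pass.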

How the results depend on the processing

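Over 120 fold changes (10 genes in 12 comparisons) and 20 alternatives, 2335 of 2400 values kept their direction and their side of the threshold or had no call to lose, 44 lost a call, 21 gained one and 0 reversed a call. RLE scaling changed no call of the 10 genes. The number of the 10 past the threshold, with 1 library left out, was 1 to 3 for molded against no mold, 0 to 2 for anchored post against no mold, 1 to 4 for anchored middle against no mold, 1 to 2 for unanchored post against no mold, 1 to 3 for unanchored middle against no mold, 0 to 2 for post against middle in anchored tissue, 0 to 1 for post against middle in unanchored tissue and 3 to 6 for post against middle pooled. It was 0 in the other comparisons. The number of all genes past it was 856 to 2297 for molded against no mold, 251 to 951 for anchored post against no mold, 768 to 1861 for anchored middle against no mold, 496 to 1403 for unanchored post against no mold, 790 to 2061 for unanchored middle against no mold, 62 to 283 for post against middle in anchored tissue, 3 to 159 for post against middle in unanchored tissue, 465 to 1150 for post against middle pooled and 0 to 1 for anchored against unanchored pooled, and 0 in the others.

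Without the 3 shallowest libraries, the number of the 10 genes past the threshold was 1 rather than 3 for molded against no mold, 0 for anchored post, 0 for anchored middle and 1 for unanchored middle against no mold, and 1 for the unanchored regions. All genes past it then numbered 335 rather than 1888 for molded, 82 rather than 658 for anchored post, 411 rather than 1575 for anchored middle, 170 rather than 1068 for unanchored post and 421 rather than 1747 for unanchored middle against no mold, and 148 rather than 53 for the unanchored regions. That setting leaves 1 no-mold library. With no filter, 3, 3, 2 and 1 of the 10 passed for the anchored regions, the unanchored regions, anchored post against no mold and pooled anchoring (PLOD1), and 479, 272, 21, 28, 66 and 3 of all genes for the anchored regions, the unanchored regions, anchoring in the post, in the middle and pooled, and the interaction. DESeq2 passed 1 of the 10 and 133 genes for the unanchored regions. For these counts the cause was not tested.

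Replicate numbers are shared across groups, but the labels do not say that they pair samples, so they were not taken as pairs. Same-numbered libraries deviated together only in part (r -0.16 to 0.25, median 0.02, against a median of -0.01 for other pairs). Those pairs include groups that could not share a tissue. Between post and middle of unanchored tissue, r was 0.09, 0.10 and 0.25 for same numbers, against -0.16 to 0.06 for others. In anchored tissue it was -0.02, 0.08 and 0.13, against -0.15 to 0.06. A pairing of regions was thus not settled. With a replicate block, 2 of the 10 passed for anchored post against no mold (P4HA1 in addition, adjusted p = 0.0268) and 1 gene for pooled anchoring, and it changed no other call of the 10.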

Other observations

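The balance of the prolyl 4-hydroxylase subunits is given as a ratio that was chosen after the values were seen and was not tested. P4HA2 reads per P4HA1 read were 2.01, 1.76 and 1.97 in anchored post, 1.79, 2.11 and 1.93 in anchored middle, 1.79, 2.07 and 1.82 in unanchored post and 2.04, 1.93 and 1.93 in unanchored middle, against 2.74, 2.31 and 3.26 without a mold. The 12 molded libraries spanned a narrow range, below all 3 no-mold libraries, and how often other gene pairs show such a gap was not counted. No-mold libraries 1 and 3, at 2.74 and 3.26, were the shallowest of all, and the deeper no-mold library 2 had 2.31. Of P4HA1 counts, 60.1% sat in values that are not whole. The part of depth in this ratio was not tested. Anchored middle library 2, which stood apart for each of the genes alone, set the upper end of that range at 2.11.

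The genes whose levels over the 15 libraries were most like those of the 10 differed from one to the next. For P4HA2 they were ALDOA, a glycolytic enzyme (Pearson r = 0.96), NDUFA4L2, a mitochondrial protein induced by hypoxia (0.955), and ECI1, an enzyme of fatty acid oxidation (0.953). PLOD1 was most like SLC2A3, a glucose transporter (0.966), FXYD6 (0.954) and ECM1 (0.949). LOXL1 and LOXL2 both had COL3A1, the gene of type III collagen, among their 3 nearest (0.894 and 0.912), and LOXL1 also COL1A1 (0.887). LOX itself was nearest to TMEM100 (0.932), NFIB (0.92) and FGL2 (0.916). SERPINH1 had the weakest matches, led by AHNAK (0.815). With group means taken out, r was 0.944 for P4HA2 with ALDOA, 0.916 for PLOD1 with SLC2A3, 0.767 for LOXL1 with COL3A1 and 0.816 for LOX with TMEM100. These values describe 15 libraries that share groups and depth.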
